A study of Mus musculus with 6 samples.

Results

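The transcripts described here are those of 37 genes of blood and lymphatic endothelium, the cells that line vessels, together with angiogenic receptors and genes of sprouting tip cells. They were chosen by gene symbol from a list drawn up with earlier results of these data known. Counts set beside those of all genes are therefore descriptive. A gene was tested where 3 or more of the 6 arrays detected a probe of it (detection p-value below 0.05), with the brightest such probe standing for it. Of the 37 genes, 36 had a probe named for them and 29 were tested, out of 16593 named genes on the array and 9246 tested. The samples were cecal cells of 3 HBUS mice, enriched for CD45 and taken in each mouse from a serrated polyp (SP, 3 samples) and from normal, distal cecum around it (Surrounding, 3 samples). The labels give HBUS as the strain, and the published study describes these mice as transgenic for the EGF receptor ligand HB-EGF and the viral chemokine receptor US28 in the intestinal epithelium. Both groups came from the same animals, so the Surrounding cells carried the same alleles, and the age of the mice is not given in the sources used here. Per the labels, EDTA was used to strip epithelium and dispase to free the cells left behind. A magnetic column then kept those that bound beads against CD45, which leukocytes carry on their surface.

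Endothelial cells are not known to carry CD45, and which cells the transcripts below came from was not measured. Endothelial identity and growth rest on a few linked systems. VEGF ligands act on the receptor tyrosine kinases Flt1, Kdr and Flt4, and angiopoietins on Tek (TIE2) with its partner Tie1. Junctional proteins such as VE-cadherin (Cdh5) seal the vessel wall, ETS and SOXF transcription factors keep the endothelial programme on, and Prox1, Flt4, Lyve1 and Pdpn mark lymphatic vessels. Several of the 37 genes are also used by other cells: Pecam1 and Icam2 by leukocytes, Vwf by platelets, Cd34 by progenitors and fibroblasts, Pdpn by fibroblasts and Lyve1 by tissue macrophages.

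Of the 29 tested endothelial genes, 21 were higher in SP samples and 1, Lyve1, was lower, while 7 did not pass the test (limma, mouse as a block, adjusted p under 0.05 over all probes). Over all 9246 tested genes, 5.0% were higher and 6.46% were lower by the same test, and 10.4% of all 13409 tested probes passed in either direction. A rise of at least 2-fold that passed was seen for 5 of the 29 genes, Egfl7, Sox18, Aplnr, Notch4 and Robo4, and for 0.984% of all tested genes. In the values the authors had processed, where background is still included, only Egfl7 of these 5 rose at least 2-fold. The median change of the 29 was 0.69 on the log2 scale, SP minus Surrounding, beside 0.02 for all tested genes, and the changes ran from -1.25 to 1.24. The filter can let a gene in through the group in which it is high. Of the 29 genes, 27 were detected on all 6 arrays, and 20 of these 27 were higher, against 5.11% of all 8030 genes detected on all arrays. The summed normalised intensity of the 29 genes lay between 8814 and 10082 in SP samples, against 5522 to 6389 in Surrounding samples. In these mixed samples, a larger share of endothelial cells, more RNA per such cell, and RNA from other cells cannot be told apart.

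The median difference over the 29 genes was 0.72 in mouse 1, 0.67 in mouse 2 and 0.63 in mouse 3. The rise was thus of like size in each animal, and 22 of the 29 genes were higher in all 3 pairs, as were 27.4% of all tested genes. The SP values lay wholly above the Surrounding values for 21 of the 29 genes, and this was so for 10.7% of all tested genes. They lay wholly below for 0 of the 29, against 9.53% of all tested genes. The count of genes that passed depended on the model and on the mice. Dropping the mouse term left 5 genes higher. Leaving mouse 1 out gave 22, leaving mouse 2 out gave 11 and leaving mouse 3 out gave 10. None of the 22 genes that passed changed direction in the 14 alternatives tried, of which 12 tested Aplnr. Alternatives that changed only the mouse term, the filter or the variance prior leave the change itself as it was. Those could not turn its direction. The authors' processed values are nearly the same as those without background correction, so these alternatives are not separate.

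**Figure D1:**
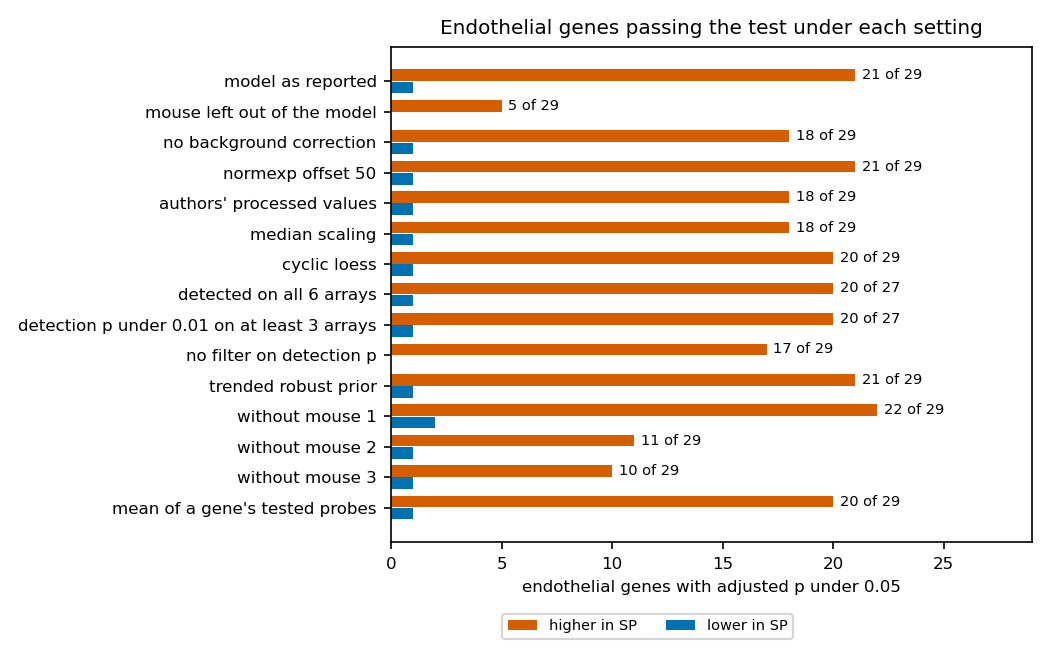
Number of the tested endothelial genes (x axis) that passed the test and were higher or lower in SP under each setting (y axis); the label gives the number higher of the number tested. Higher genes number 17 to 22 of up to 29 except when mouse is left out of the model (5), without mouse 2 (11) and without mouse 3 (10).

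**Figure D2:**
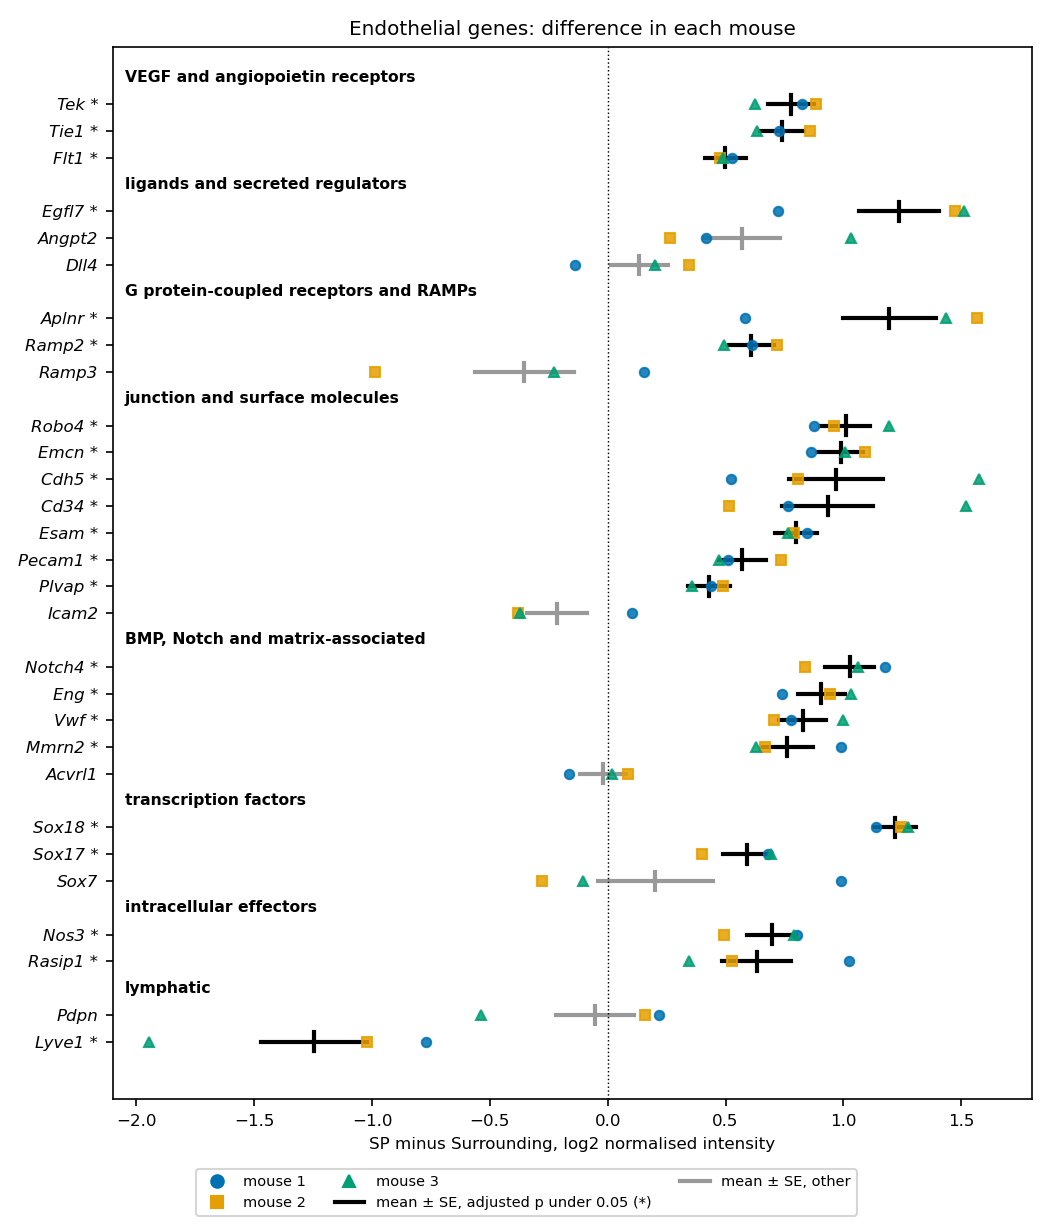
Difference between the SP and the Surrounding sample of each mouse (x axis, log2 normalised intensity) for the 29 tested endothelial genes, grouped by role; symbols are mice, bars are the mean ± SE of the limma fit, and stars mark genes that passed the test. Most genes lie right of 0 in all 3 mice, and Lyve1 lies left of 0 in all 3.

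Other cell markers moved in the same samples, in which 5.0% of all tested genes were higher and 6.46% lower. Of 10 tested pan-leukocyte genes, 8 were lower and 0 higher, among them Cd37 (-1.79), Arhgdib (-0.99) and Ptprc, which encodes CD45 (-0.99), and their summed intensity was 8174 to 13412 in SP samples, against 15438 to 20497 in Surrounding samples. Of 10 epithelial genes, 3 were higher, namely Krt19 (0.60), Krt18 (0.51) and Elf3 (0.50), with sums of 47962 to 49045 in SP samples and 41814 to 43248 in Surrounding samples. Ptprc was not detected on 1 SP array. Of 11 fibroblast genes, 2 were lower, Thy1 (-1.04) and Col6a1 (-0.65), with sums of 1667 to 2295 in SP samples and 2323 to 2526 in Surrounding samples. The other 9 did not pass, and 4 of the 11 had changes above 0. The sums include Thy1, at 8.47, 8.35 and 7.92 in SP samples and 9.58, 9.57 and 8.72 in Surrounding samples. They were not taken without Thy1, so their gap cannot be read as a fall of the other fibroblast genes. Of 10 genes of pericytes and smooth muscle, 4 were lower, led by Actg2 (-2.06) and Myh11 (-1.73), and 1, Mcam, a surface protein that endothelium also carries, was higher (1.17). Of the 10, 5 had changes above 0, and the list does not tell pericytes from smooth muscle. The sums of the 10 genes were 1364 to 2360 in SP samples and 2466 to 3238 in Surrounding samples. The part of these shifts in the endothelial changes was not tested.

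Among the receptor tyrosine kinases, all 3 with a tested probe were higher. Tek, the angiopoietin receptor, had normalised log2 intensities of 6.80, 7.06 and 7.15 in SP samples of mice 1, 2 and 3, against 5.97, 6.18 and 6.53 in Surrounding samples. The groups did not overlap, and the change was 0.78 ± 0.10 (SE, n = 3 pairs, limma adjusted p = 0.00897). Tie1, which pairs with Tek, had 5.61, 5.71 and 5.75 in SP samples, against 4.88, 4.85 and 5.12 in Surrounding samples, a change of 0.74 ± 0.09 (limma adjusted p = 0.00943). Without mouse 2 neither call held, with a limma adjusted p of 0.0546 for Tek and 0.0625 for Tie1. Flt1, the VEGF receptor that also serves as a decoy, had 9.26, 9.19 and 9.13 in SP samples, against 8.73, 8.72 and 8.64 in Surrounding samples. Its difference was the most even of the 21 endothelial genes that were higher, 0.53, 0.48 and 0.49 in the 3 mice (0.50 ± 0.09, limma adjusted p = 0.0225). The call of Flt1 was lost when arrays were scaled to the same median (limma adjusted p = 0.12), without mouse 2 (0.123) and without mouse 3 (0.0966). A second Flt1 probe was not above background on any array. Kdr, the main signalling receptor for VEGF-A, and Flt4, the receptor for VEGF-C, were not above background on any array. Such a probe gives no level, so nothing is known here of the change of either gene.

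The ligands and secreted regulators moved less evenly. Egfl7, a protein that endothelial cells secrete into their matrix, had 9.33, 10.23 and 10.09 in SP samples, against 8.61, 8.75 and 8.58 in Surrounding samples. Its change, 1.24 ± 0.17 (SE, n = 3 pairs, limma adjusted p = 0.0118), was the largest rise of the 29 and ranked 53 when all 9246 tested genes were ordered from the highest rise down. The smallest difference was in mouse 1, 0.72, and without mouse 3 the adjusted p of limma was 0.0647. A second, dimmer Egfl7 probe was higher by 1.45 ± 0.24 (limma adjusted p = 0.0183) and another, detected on 2 SP and 3 Surrounding arrays, differed by 0.11 (0.646). Angpt2, the angiopoietin released by activated endothelium, had 7.71, 7.81 and 8.43 in SP samples, against 7.30, 7.55 and 7.39 in Surrounding samples. The groups did not overlap, yet the change of 0.57 ± 0.16 did not pass (limma adjusted p = 0.0818), though it did without mouse 1 (0.0393). A second Angpt2 probe, detected on 1 array of each group, was not tested. Dll4, the Notch ligand of tip cells, was detected on 2 arrays of each group and differed by 0.13 ± 0.12 (limma adjusted p = 0.516). Apln, the peptide ligand of Aplnr, was not above background on any array.

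Aplnr, the apelin receptor, had 4.94, 6.06 and 6.06 in SP samples, against 4.35, 4.49 and 4.63 in Surrounding samples, where it was detected on 1 of 3 arrays. It was higher by 1.19 ± 0.20 (SE, n = 3 pairs, limma adjusted p = 0.0189). The probe is dim, and in the values the authors had processed, where background is still included, the change of Aplnr was 0.40 (limma adjusted p = 0.0432). It also did not pass without mouse 2 (limma adjusted p = 0.0679) or without mouse 3 (0.0995). Adrenomedullin, a peptide that stabilises vessels, binds the receptor Calcrl in complex with Ramp2 or Ramp3. Ramp2 had 9.52, 9.65 and 9.38 in SP samples, against 8.90, 8.93 and 8.88 in Surrounding samples, and was higher by 0.61 ± 0.09 (limma adjusted p = 0.0163). Its call was lost without mouse 2 (limma adjusted p = 0.104) and without mouse 3 (0.0543). Ramp3, by contrast, had 7.60, 6.08 and 5.85 in SP samples, against 7.44, 7.07 and 6.08 in Surrounding samples. It was higher in mouse 1 and lower in the other mice, and its change of -0.35 ± 0.21 did not pass (limma adjusted p = 0.336), but passed as lower without mouse 1 (-0.61, 0.0484). A second Ramp3 probe differed by -0.14 (limma adjusted p = 0.703). Calcrl itself was not above background on any array.

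Junction and surface genes made up the largest group, with 8 of 10 tested and 7 higher. Pecam1, the platelet and endothelial adhesion molecule CD31, had 7.78, 8.29 and 7.96 in SP samples, against 7.27, 7.55 and 7.49 in Surrounding samples. The rise was 0.57 ± 0.10 (SE, n = 3 pairs, limma adjusted p = 0.0218), and that of a dimmer Pecam1 probe 0.81 ± 0.09 (0.00633). With arrays scaled to the same median the brighter Pecam1 probe did not pass (limma adjusted p = 0.0562), nor did it without mouse 2 (0.136) or without mouse 3 (0.0735). Cdh5, the cadherin of endothelial junctions, had 5.31, 6.05 and 6.43 in SP samples, against 4.79, 5.24 and 4.86 in Surrounding samples. Its differences were spread the widest of the genes that were higher, 0.52, 0.81 and 1.58 in mice 1, 2 and 3 (0.97 ± 0.20, limma adjusted p = 0.0357). In the authors' processed values Cdh5 changed by 0.36 and did not pass (limma adjusted p = 0.0718), and it did not pass without mouse 2 (0.0847) or without mouse 3 (0.067).

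Esam, an adhesion molecule of tight junctions, had 9.76, 10 and 9.80 in SP samples, against 8.91, 9.21 and 9.04 in Surrounding samples. The change was nearly equal in the 3 mice, 0.84, 0.79 and 0.76 (0.80 ± 0.09, SE, n = 3 pairs, limma adjusted p = 0.00579). Emcn, the sialomucin endomucin of capillaries and veins, had 8.50, 9.11 and 8.75 in SP samples, against 7.64, 8.02 and 7.74 in Surrounding samples, and was higher by 0.99 ± 0.10 (limma adjusted p = 0.00419). Robo4, a guidance receptor that stabilises vessels, had 8.24, 8.57 and 8.60 in SP samples, against 7.37, 7.61 and 7.41 in Surrounding samples. It was 2.01-fold higher (1.01 ± 0.10, limma adjusted p = 0.00477). The other Robo4 probes were detected on at most 1 array and were not tested. These 3 genes showed no overlap between the groups.

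Cd34, a sialomucin of small vessels and progenitors, had 5.98, 6.40 and 6.81 in SP samples, against 5.22, 5.89 and 5.29 in Surrounding samples. The rise of 0.93 ± 0.19 passed (SE, n = 3 pairs, limma adjusted p = 0.0365). It did not pass in the authors' processed values, where it was 0.41 (limma adjusted p = 0.06), or without mouse 3 (0.0708). Plvap, which forms the diaphragms of fenestrated gut capillaries, had 10.57, 10.67 and 10.25 in SP samples, against 10.14, 10.18 and 9.89 in Surrounding samples. It showed the smallest of the 21 rises, 0.43 ± 0.09 (limma adjusted p = 0.0369), which did not pass with median scaling (0.16), without mouse 2 (0.222) or without mouse 3 (0.109). Icam2, an adhesion molecule of resting endothelium that leukocytes also carry, lay between 7.16 and 7.40 in SP samples and between 7.30 and 7.57 in Surrounding samples. Its change of -0.22 ± 0.13 did not pass (limma adjusted p = 0.325). Clec14a, a lectin of the endothelial surface, was not above background on any array, and Cldn5 had no named probe and was not analysed here.

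**Figure D3:**
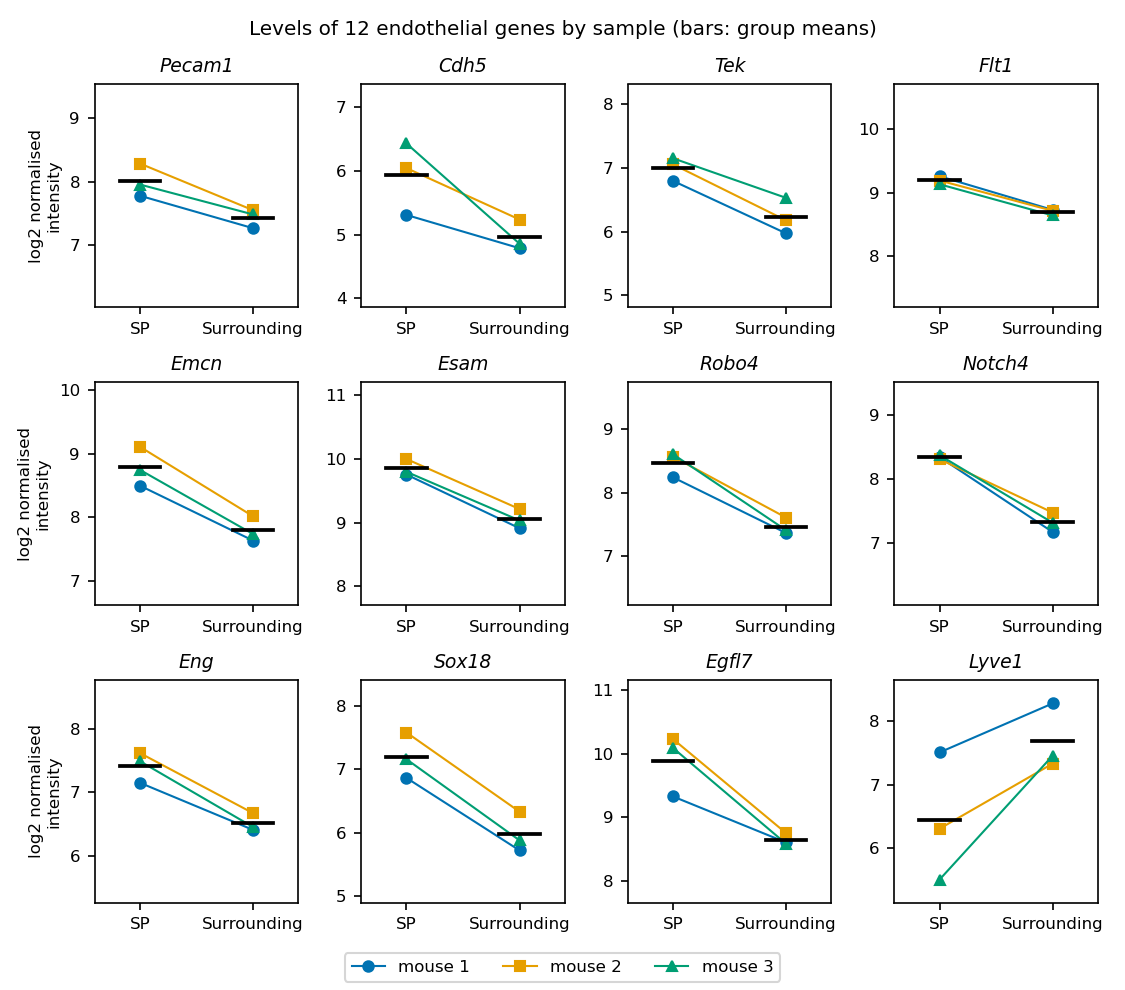
Normalised log2 intensity (y axes, each spanning the same range) of 12 endothelial genes in the SP and Surrounding samples, with lines joining the samples of a mouse and black bars at the group means. For 11 genes every line falls towards the Surrounding sample, and for Lyve1 every line climbs towards it.

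Genes of BMP and Notch signalling and of the vessel matrix were higher in 4 of 5 cases. Notch4, a Notch receptor of endothelium, had 8.34, 8.31 and 8.37 in SP samples, against 7.17, 7.47 and 7.31 in Surrounding samples. It was 2.04-fold higher (1.03 ± 0.10, SE, n = 3 pairs, limma adjusted p = 0.00472), and its SP values were the tightest of the genes in the group. A second Notch4 probe was detected on 1 array and was not tested. Eng, the co-receptor endoglin, had 7.15, 7.62 and 7.49 in SP samples, against 6.41, 6.67 and 6.45 in Surrounding samples, a change of 0.91 ± 0.10 (limma adjusted p = 0.00592). Acvrl1, the ALK1 receptor that works with endoglin, differed by only -0.02 ± 0.10 and did not pass (limma adjusted p = 0.917). Its values were 5.08, 5.26 and 4.79 in SP samples and 5.24, 5.17 and 4.78 in Surrounding samples, so that the groups overlapped. Mmrn2, a matrix glycoprotein that binds Clec14a, had 8.35, 8.52 and 8.24 in SP samples, against 7.36, 7.85 and 7.61 in Surrounding samples (0.76 ± 0.11, limma adjusted p = 0.013). Vwf, the clotting factor stored by endothelium and platelets, had 9.97, 9.82 and 9.62 in SP samples, against 9.19, 9.11 and 8.62 in Surrounding samples. It was higher by 0.83 ± 0.10 (limma adjusted p = 0.00801). Of 4 tested genes of platelets and megakaryocytes, 1, Gp1bb, was higher (0.85), against 5.0% of all tested genes. Of the 4, 3 had changes above 0. Their summed intensity was 282 to 669 in SP samples and 541 to 728 in Surrounding samples, most of it from Pf4. Pf4 was the brightest of the 4 and did not pass (-0.58, limma adjusted p = 0.289), so the sums do not stand for the other platelet genes. The part of platelets in the Vwf change was not tested.

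Sox7, Sox17 and Sox18 form the SOXF family, which acts in arterial and lymphatic specification. Sox18 had 6.86, 7.58 and 7.16 in SP samples, against 5.72, 6.33 and 5.88 in Surrounding samples. It was 2.33-fold higher (1.22 ± 0.09, SE, n = 3 pairs) and had the lowest adjusted p of the 29 genes (limma adjusted p = 0.00264). Sox17 had 6.04, 6.10 and 6.22 in SP samples, against 5.36, 5.70 and 5.53 in Surrounding samples (0.59 ± 0.10, limma adjusted p = 0.0223), while a dimmer Sox17 probe differed by 0.37 and did not pass (0.118). The Sox17 call was also lost without mouse 2 (limma adjusted p = 0.059) and without mouse 3 (0.107). Sox7 was higher in mouse 1 by 0.99 and lower in mice 2 and 3, so its mean change of 0.20 ± 0.24 did not pass (limma adjusted p = 0.64), and a second Sox7 probe differed by 0.09 (0.753). Erg, the ETS factor that maintains endothelial identity, was not above background on any array. Of the intracellular effectors, Nos3, the endothelial nitric oxide synthase, had 6.09, 6.06 and 6.21 in SP samples, against 5.29, 5.56 and 5.42 in Surrounding samples. It was higher by 0.69 ± 0.10 (limma adjusted p = 0.0148), and its other tested probes were higher by 0.78 and 0.75. Without mouse 3 the call of Nos3 was lost (limma adjusted p = 0.0775). Rasip1, a Ras-interacting protein needed for vessel lumens, had 7.25, 7.02 and 6.44 in SP samples, against 6.22, 6.49 and 6.10 in Surrounding samples. Here the groups overlapped and the test was only just passed (0.63 ± 0.15, limma adjusted p = 0.0482). The call of Rasip1 was lost in 8 of 14 alternatives, among them those without mouse 2 (limma adjusted p = 0.134) and without mouse 3 (0.0804).

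Of the lymphatic genes, 2 were tested and 0 passed as higher. Lyve1, the hyaluronan receptor of lymphatic endothelium and of a class of tissue macrophages, had 7.51, 6.31 and 5.51 in SP samples, against 8.28, 7.33 and 7.46 in Surrounding samples. It was 2.37-fold lower (-1.25 ± 0.22, SE, n = 3 pairs, limma adjusted p = 0.0235), lower in all 3 mice, and did not pass with no filter on detection (0.0782). The groups overlapped because mouse 1 was high in both. Pdpn, podoplanin, had 7.67, 8.02 and 7.23 in SP samples and 7.46, 7.86 and 7.77 in Surrounding samples, and did not pass (-0.06 ± 0.16, limma adjusted p = 0.864). Prox1, the factor that sets lymphatic identity, was detected on 1 array of each group and was not tested, and Flt4 was not detected. The only lymphatic gene that passed is therefore one that macrophages share. Among 9 tested macrophage genes, 1, the folate receptor Folr2, was lower, with 7.004, 5.91 and 5.02 in SP samples, against 7.80, 6.94 and 7.21 in Surrounding samples (-1.34 ± 0.26, limma adjusted p = 0.0303). The other 8 macrophage genes did not pass, and the median change of the 9 was -0.61. Of all tested genes, 6.46% were lower. The summed intensity of the macrophage genes was 3324 to 12405 in SP samples and 6214 to 11333 in Surrounding samples, and its part in the Lyve1 change was not tested.

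Of 12 tested ligands and co-receptors of the same pathways outside the 37 genes, 1 was higher and 0 lower, with a median of 0.14 on the log2 scale, and 5 of the 17 listed were not tested. Over all tested genes, 5.0% were higher and 6.46% lower. Without mouse 1, 2 of the 12 were higher and 3 lower, without mouse 2 0 passed, and without mouse 3 1 was higher. The gene that rose was Ptprb, the phosphatase VE-PTP that restrains Tek, at 0.64 ± 0.13 (SE, n = 3 pairs, limma adjusted p = 0.0357). Vegfa, the main VEGF ligand, had 9.43, 8.91 and 8.64 in SP samples, against 9.04, 9.10 and 8.65 in Surrounding samples, and did not pass (0.06 ± 0.13, limma adjusted p = 0.793). Vegfc, the lymphatic growth factor, differed by 0.30 ± 0.18 (limma adjusted p = 0.319), and Angpt1, the agonist of Tek, was not tested. Of 12 tested genes of Notch and BMP9/ALK1 signalling, with a median of -0.04, 1 was higher and 1 lower, beside the same shares of all tested genes. Hey1, a Notch target, was higher by 0.65 ± 0.10 (limma adjusted p = 0.0149), and Id2, a BMP target that lymphocytes also use, was lower (-0.60 ± 0.10, limma adjusted p = 0.0222). No gene of this list passed without mouse 2 or without mouse 3, and without mouse 1, 1 was higher and 2 lower.

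A further list of 34 endothelial genes had 23 tested members, of which 7 were higher and 4 lower, with a median of 0.28. The shares of all tested genes were 5.0% and 6.46%. Gpihbp1, which carries lipoprotein lipase across capillaries, was higher by 1.03 ± 0.12 (SE, n = 3 pairs, limma adjusted p = 0.00633). Madcam1, the venule ligand for gut-homing lymphocytes, had 6.53, 7.20 and 6.88 in SP samples, against 5.81, 5.96 and 6.10 in Surrounding samples (0.91 ± 0.13, limma adjusted p = 0.0126). The GTPase exchange factor Arhgef15 was higher by 0.77 ± 0.13 (limma adjusted p = 0.0188) and Tmem204 by 0.70 ± 0.10 (0.0138). The 4 that were lower are transcriptional regulators: Ets1 (-1.02 ± 0.10), Lmo2 (-0.75 ± 0.12), Klf4 (-0.65) and Fli1 (-0.54). Gata2, also a transcription factor, was among the 7 that were higher (0.67 ± 0.13, limma adjusted p = 0.0306). Klf4, Fli1 and Gata2 were named after their values were seen. Which cells these falls came from was not tested. Without mouse 1, 7 genes of the list were higher and 8 lower, without mouse 2, 2 were higher and 1 lower, and without mouse 3, 1 was higher and 1 lower. Under median scaling, 8 were higher and 7 lower. The sums for this list overlapped between the groups, at 6190 to 9445 in SP samples and 7022 to 8913 in Surrounding samples.

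**Figure D4:**
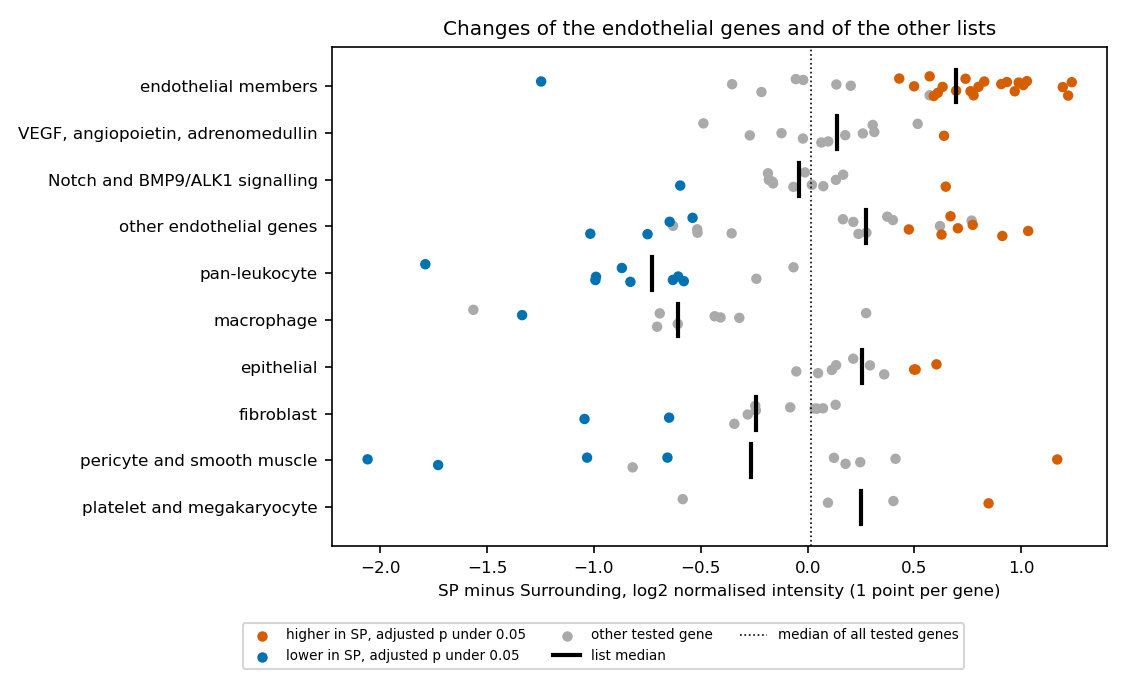
Change of each tested gene (x axis, SP minus Surrounding, log2 normalised intensity) in the 29 endothelial genes (top row), the pathway lists and the cell type marker lists; colour marks genes that passed the test and black bars are list medians. The endothelial median of 0.69 lies to the right of 0, and the pan-leukocyte median of -0.73 to the left.

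Eng, Esam, Notch4 and Robo4 were the genes whose call held in all 14 alternatives. The start regions of 3 of them are shown with the first of 3 listed for Egfl7, the gene with the largest rise, from 250 bases before to 50 bases after the gene's start (RefSeq, GRCm38.p6, plus strand, 5′ to 3′). Capitals mark the ETS words CAGGAAG and CCGGAAG, on either strand, the kind of word bound by ERG and related factors. The regions are chr9:37401722-37402021 for Robo4, chr17:34564045-34564344 for Notch4, chr2:32646345-32646644 for Eng and chr2:26580833-26581132 for Egfl7.
Robo4: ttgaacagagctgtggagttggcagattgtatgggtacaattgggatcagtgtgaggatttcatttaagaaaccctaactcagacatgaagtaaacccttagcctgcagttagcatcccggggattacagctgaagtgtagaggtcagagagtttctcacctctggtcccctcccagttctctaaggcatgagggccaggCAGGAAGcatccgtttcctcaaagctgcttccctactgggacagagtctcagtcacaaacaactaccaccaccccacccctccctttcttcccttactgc
Notch4: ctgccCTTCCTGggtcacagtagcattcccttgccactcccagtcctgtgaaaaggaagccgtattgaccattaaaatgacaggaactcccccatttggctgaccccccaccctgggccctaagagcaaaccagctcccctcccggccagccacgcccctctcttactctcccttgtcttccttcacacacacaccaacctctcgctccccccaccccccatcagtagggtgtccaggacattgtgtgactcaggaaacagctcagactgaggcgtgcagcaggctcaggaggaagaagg
Eng: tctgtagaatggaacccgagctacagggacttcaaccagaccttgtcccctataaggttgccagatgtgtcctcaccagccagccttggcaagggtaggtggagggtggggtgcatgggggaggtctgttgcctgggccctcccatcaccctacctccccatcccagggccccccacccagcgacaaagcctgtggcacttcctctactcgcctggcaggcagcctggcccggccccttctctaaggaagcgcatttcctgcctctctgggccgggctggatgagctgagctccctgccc
Egfl7: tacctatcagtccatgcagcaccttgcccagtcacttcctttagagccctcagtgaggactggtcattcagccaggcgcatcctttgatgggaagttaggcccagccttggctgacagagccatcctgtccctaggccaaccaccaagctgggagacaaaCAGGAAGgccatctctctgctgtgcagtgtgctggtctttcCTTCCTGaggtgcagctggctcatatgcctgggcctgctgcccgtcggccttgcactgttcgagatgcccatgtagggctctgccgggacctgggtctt
Robo4 and Notch4 each held 1 match, and Eng held neither ETS word in full. Shorter parts of the words were not searched for. The Egfl7 region printed held 2, and the other start regions of Egfl7, not printed, held 1 and 0. Such regions were given for 21 of the 37 genes, 26 regions in all, since Egfl7, Erg and Prox1 have several. An ETS word stood in 11 of the 26 (42.3%), against 20.9% of 32851 mouse gene starts of the same length. The SOX words ACAAAG and ACAATG stood in 34.6% of the 26, against 28.6% of all, and the GATA word AGATAA in 7.69%, against 11.2%. The words do not contain one another, and a match describes the letters only. No test was made of these shares.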

How the data were processed

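Illumina mouse reference BeadArrays were used, 1 for each of the 6 samples, all on 1 chip, per the labels and file headers. The deposited scanner table gives, per the file headers, 1 linear intensity per probe and array, and a detection p-value beside it. The lowest intensities, 79.2 to 84.9, show that background was left in. The authors' processed intensities equal a quantile normalization of that table to within 0.005. GenomeStudio and limma 3.14.4 are the tools given, without roles, per the submitters' processing notes. Median signals ran from 97.3 to 109.3 and detected probes from 49.3% to 53.7% of 25697. The number of arrays limits the precision.

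In R 4.3.3 with limma 3.58.1, intensities were corrected by normexp from the detection p-values with an offset of 16, then quantile normalized between arrays and expressed as log2 values. Probes detected (p under 0.05) on at least 3 arrays were tested, 13409 in all, with mouse and group as terms (lmFit, eBayes, 4.04 prior and 2 residual degrees of freedom), two-sided, with Benjamini-Hochberg adjustment over all tested probes. Of these, 1399 (10.4%) passed. The platform annotation gave 1 symbol for 23978 probes, several for 0 and none here for 1719, and 23962 matched the RefSeq gene table of GRCm38.p6. The fit was tested on simulated data.

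The design text states that samples sharing a mouse number came from 1 animal. Deviations from the group means correlated across probes by 0.571, 0.564 and 0.614 within mice. By array position, each SP sample came just before its Surrounding sample on the chip, so position and group cannot be told apart.

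The members and lists were chosen with earlier results of these data known. The text names all 37 genes, with every sample's value for those that passed the test and for Pecam1, Cdh5, Flt1, Tek, Lyve1 and Pdpn. Per pathway list it names the 6 largest changes that passed, with Vegfa, Vegfc and Angpt1, and per marker list the 3 largest. Klf4, Fli1, Gata2 and Pf4 were named besides, after their values were seen. Alternatives were other background, normalization, filter, variance and probe choices, mouse left out, and each mouse left out.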

Additional observations from a re-analysis of the deposited data

How the results depend on the processing

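The endothelial genes that passed and were higher numbered 21 as reported and 17 to 21 under the other background, normalization, filter, variance and probe settings. With mouse left out of the model (no replicate block), 5 were higher and 0 lower, and 183 probes passed in all, against 1399. With no filter on detection p-values Lyve1 did not pass (limma adjusted p = 0.0782), so that 0 were lower. Leaving out a mouse gave 10 to 22 higher and 1 to 2 lower, and 484 to 2020 probes in all. These fits have fewer samples and other priors. Some genes that had not passed changed sign when a mouse was left out: Acvrl1 lay between -0.0721 and 0.0503, Sox7 between -0.19 and 0.44, and Pdpn between -0.19 and 0.19, and the cause was not tested. Of all probes that passed, 44.3% were rises as reported, 28.9% with arrays scaled to the same median, and 33.9% without mouse 3. Under median scaling eBayes gave all probes 1 variance. The authors' processed values gave smaller changes for dim probes: 0.25 for Tie1 and Sox17 and 0.67 for Sox18. Changes of brighter probes were smaller too, 0.76 for Notch4 and 0.77 for Robo4. Of the genes that rose at least 2-fold as reported, only Egfl7 (1.10) did so in these values. Probes not above background on any array limit what can be said of Kdr, Flt4, Calcrl, Clec14a, Erg and Apln.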
